A study of Mus musculus with 12 samples.

Results

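The 39 Hox genes of the mouse are described here in cultured neural stem cells as differentiation began. They were chosen by name, as every gene whose symbol is Hoxa, Hoxb, Hoxc or Hoxd followed by a number, out of 54356 annotated genes, and all 39 were found. RNA had been sequenced from primary neural stem cells labelled wild type or Chd5-/-, 3 h and 48 h after the growth medium was exchanged, with 3 libraries in each of the 4 groups. All 4 groups had been kept in DMEM/F-12 with N-2 supplement and the growth factors EGF and FGF2, and all were then moved to neurobasal medium with B-27. The labels give neither the age nor the strain of the animals, the brain region, the sex, the deleted part of Chd5, nor whether replicates came from separate animals or cultures, so the p-values measure only the spread between these samples.

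Hox genes encode homeodomain transcription factors that tell cells where they lie along the head-to-tail axis. They stand in 4 clusters, A to D, in which genes of a low number are used earlier and further towards the head and genes of a high number later and further towards the tail. The hindbrain and spinal cord use them in overlapping domains, while the forebrain and midbrain develop without them, and Polycomb and Trithorax group proteins on chromatin are known to keep each cluster off or on. Chd5 encodes a chromodomain helicase found in NuRD-type chromatin complexes of neurons.

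The libraries held 14.11 to 18.71 M estimated reads. Levels are given as CPM, reads per M of the library after TMM scaling, and as TPM, which also divides by transcript length, where genes are compared with each other. Chd5 itself lay at 3.54 to 4.66 CPM in wild type and 5.25 to 7.06 CPM under the Chd5-/- label at 3 h (log2 fold change 0.61 ± 0.31 SE, edgeR adjusted p = 0.257), and at 5.28 to 7.15 and 2.96 to 5.7 CPM at 48 h (-0.66 ± 0.31, adjusted p = 0.467). Its level does not show a loss, so "under the Chd5-/- label" is used here for the libraries deposited with that genotype. Values in brackets after a comparison are log2 fold changes ± SE from edgeR, and a gene "passed" where its p adjusted over all 16043 tested genes was under 0.05. With an offset for transcript length both signs turned, -0.25 (adjusted p = 0.884) at 3 h and 2.44 (adjusted p = 0.29) at 48 h. Replicate 1 of wild type at 3 h stood apart by ribosomal protein genes, 13% of its reads, against 2.91% to 3.6% in the other 11 libraries. Replicate 2 of both genotypes at 48 h kept the proliferation marker Mki67 at 417 and 268 CPM, against 15.7 to 20.2 CPM in the other 48 h libraries. Counts of genes that passed are therefore given with all 12 libraries and with the 9 that remain without these 3, a choice made after the values were seen. This left 2 libraries in every group but that of the Chd5-/- label at 3 h. The spread that the removed libraries added is missing from the SE and p-values of that fit. Of 12 neural stem cell markers 11 were measured, among them the transcription factor Sox2 at 23.4 to 202 CPM. With 12 libraries 0 passed between the genotypes at either time, beside 6.71% of all tested genes at 3 h and 2.74% at 48 h. In the 9 libraries it was 6 at 3 h and 10 at 48 h, beside 52.5% and 47.2% of all tested genes. In these bulk samples, fewer cells of a type and less RNA per cell cannot be told apart.

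HoxA was the cluster in use. Of the 20094 reads on Hox genes in all libraries, 19868 (98.9%) lay on the 11 HoxA genes on chromosome 6 (minus strand, GRCm38). Of these, 10 passed the filter on low counts. The exception, Hoxa11, lies between Hoxa10 and Hoxa13 and had 0 reads in all 12 libraries, which allows a level of up to 0.0156 CPM over them together (3 counts, counting error only). HoxA thus had reads from its low to its high end with a gap of 1 gene near the end.

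The other 3 clusters were almost without reads. The 10 HoxB genes (chromosome 11, 96194316 to 96368256) had 6 reads in all: 3 on Hoxb13, 2 on Hoxb6 and 1 on Hoxb5, with 0 on Hoxb1, Hoxb2, Hoxb3, Hoxb4, Hoxb7, Hoxb8 and Hoxb9. The 9 HoxC genes (chromosome 15, 102921103 to 103036852) had 19 reads, of which 14 lay on Hoxc9, spread over 9 libraries that include all 4 groups. Hoxc10 had 2 reads, Hoxc4, Hoxc5 and Hoxc13 had 1 each, and Hoxc6, Hoxc8, Hoxc11 and Hoxc12 had 0. No gene of HoxB or HoxC passed the filter, so none was tested. HoxD (chromosome 2, 74668310 to 74765142) had 201 reads, and 190 of them were in the 3 libraries of the Chd5-/- label at 48 h. Hoxd4 and Hoxd8 passed the filter, Hoxd3 had 13 reads, Hoxd13 had 1, and Hoxd1, Hoxd9, Hoxd10, Hoxd11 and Hoxd12 had 0. In total 12 genes were tested, 17 had 0 reads and the other 10 had 1 to 14. Hoxa13, Hoxd4 and Hoxd8 met the minimum in the 3 libraries of the Chd5-/- label at 48 h alone, so they were tested only because they were high there, and calls of them as higher in that group are no independent support; counts are also given for the other 9 genes.

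**Figure D1:**
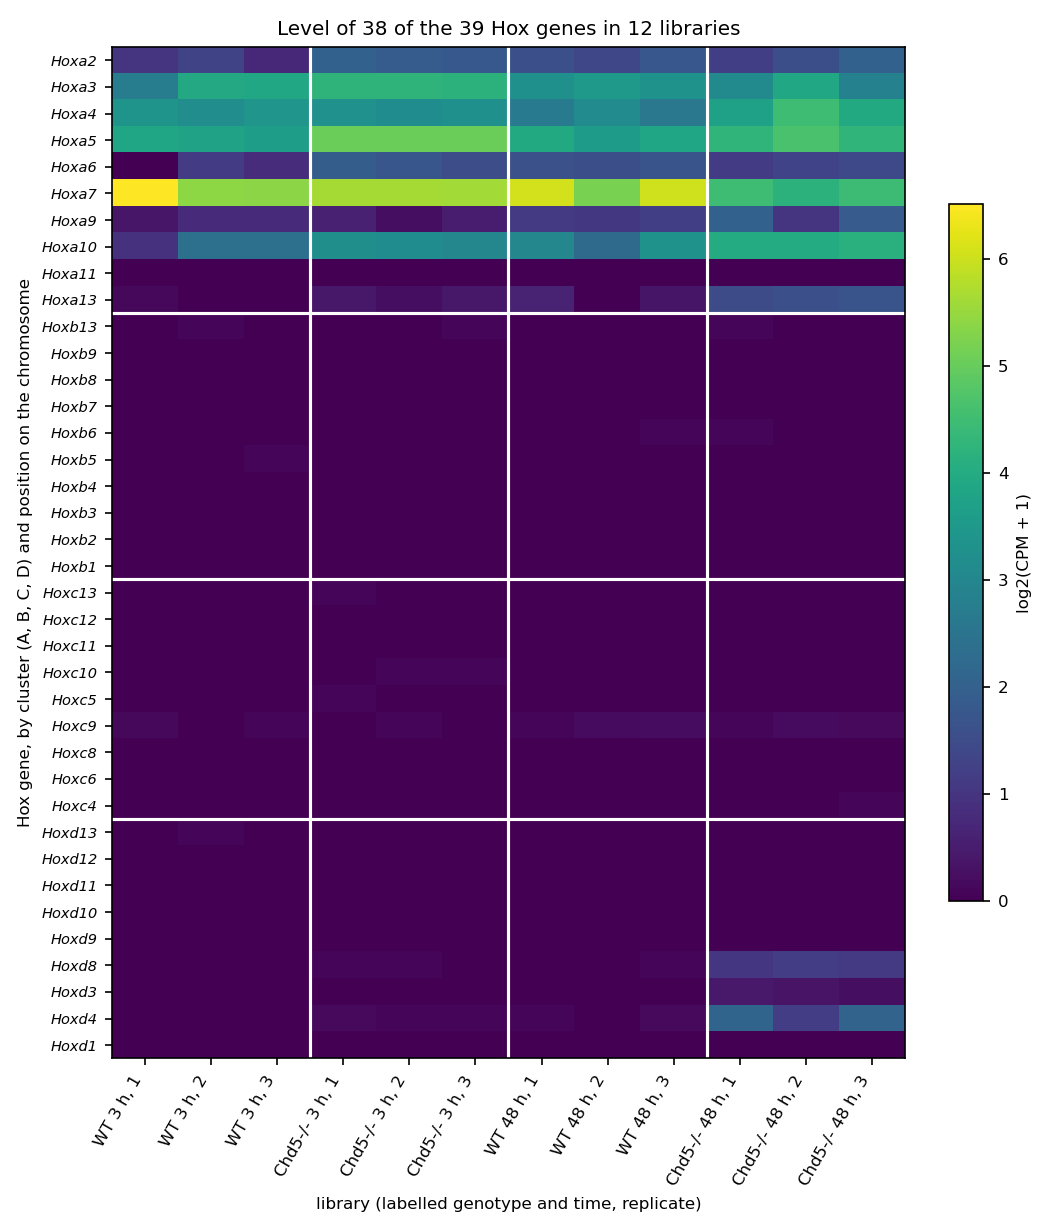
Heat map of log2(CPM + 1) for 38 of the 39 Hox genes (rows, by cluster and position) in the 12 libraries (columns, by labelled genotype, time and replicate). The HoxA rows shown hold signal except Hoxa11, with Hoxa6 at 0 CPM in wild-type replicate 1 at 3 h. Hoxa13 is at 0 to 0.55 CPM outside the Chd5-/- label at 48 h. In HoxD only Hoxd8, Hoxd3 and Hoxd4 stand out, in the 3 libraries of the Chd5-/- label at 48 h.

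The bases upstream of 4 of these genes are shown because the genes stand for the states seen here: Hoxa5, read in every library; Hoxd8 and Hoxd4, read almost only at 48 h under the Chd5-/- label; and Hoxd9, the neighbour of Hoxd8, with 0 reads throughout. Each is the 250 bases before the RefSeq start (GRCm38.p6), 5′ to 3′ on the gene's strand, with CG dinucleotides, the sites of DNA methylation, in capitals. The windows are chr6:52204588-52204837 (minus strand) for Hoxa5, and on the plus strand chr2:74704365-74704614 for Hoxd8, chr2:74721728-74721977 for Hoxd4 and chr2:74697513-74697762 for Hoxd9.
Hoxa5: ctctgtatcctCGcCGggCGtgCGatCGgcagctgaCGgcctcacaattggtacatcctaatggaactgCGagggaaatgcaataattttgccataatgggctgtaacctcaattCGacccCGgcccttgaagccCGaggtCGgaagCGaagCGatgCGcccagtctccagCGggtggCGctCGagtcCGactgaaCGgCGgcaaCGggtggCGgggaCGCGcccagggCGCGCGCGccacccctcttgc
Hoxd8: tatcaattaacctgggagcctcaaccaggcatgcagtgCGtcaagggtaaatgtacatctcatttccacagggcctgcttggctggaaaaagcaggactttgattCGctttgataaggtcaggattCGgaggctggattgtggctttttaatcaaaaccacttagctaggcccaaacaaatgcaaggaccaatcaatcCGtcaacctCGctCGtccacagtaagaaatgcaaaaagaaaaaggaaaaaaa
Hoxd4: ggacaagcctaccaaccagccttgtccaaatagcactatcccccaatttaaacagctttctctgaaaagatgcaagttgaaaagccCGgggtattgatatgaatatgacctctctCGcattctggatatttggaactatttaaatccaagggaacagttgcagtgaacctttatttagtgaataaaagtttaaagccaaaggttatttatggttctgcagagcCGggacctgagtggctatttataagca
Hoxd9: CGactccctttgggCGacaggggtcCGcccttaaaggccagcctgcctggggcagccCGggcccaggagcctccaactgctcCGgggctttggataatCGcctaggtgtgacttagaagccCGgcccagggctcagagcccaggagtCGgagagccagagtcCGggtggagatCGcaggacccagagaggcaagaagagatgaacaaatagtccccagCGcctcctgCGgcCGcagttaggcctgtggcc
The Hoxa5 window holds 28 CG dinucleotides and 63.6% G and C, that of Hoxd9 13 and 65.2%, that of Hoxd8 6 and 44.4%, and that of Hoxd4 3 and 40.4%. The median over 32851 promoters of all genes was 6 CG dinucleotides. The Hoxd8 and Hoxd4 windows therefore lie at and below that median, while the window of Hoxd9, without a read, lies above it. Other genes differ from these: the window of Hoxa13, which met the filter through the same group as Hoxd8 and Hoxd4, holds 35. One of 2 windows of Hoxd11, without a read, holds 2 and the other 20. A link between CG count and reads was not tested.

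Windows were found for 22 of the 39 genes, 24 in all because Hoxa10 and Hoxd11 have 2 each. Their CG counts ran from 2 to 35, with a median of 7 over the 11 windows of genes that were tested and 13 over the 13 windows of genes that were not. TGATTNAT, a sequence that HOX and PBX proteins are known to bind together, was found in 2 of the 24 windows (8.33%, Hoxa2 and 1 window of Hoxd11) on either strand, against 2.82% of all promoters. TGACAG, bound by MEIS and PKNOX proteins, was in 2 (8.33%, Hoxa2 and Hoxa3) against 15.9%. TATAAA, the letters of the TATA box, was in 4 (16.7%, Hoxa10, Hoxb8, Hoxd4 and Hoxd13) against 12.4%. Both were also counted on either strand, and the Hoxd4 match to TATAAA lies on the strand opposite to that printed. These are matches of letters in the windows, and binding was not measured. For Hoxa7, Hoxa9, Hoxc4, Hoxd4 and 1 window each of Hoxa10 and Hoxd11 the RefSeq start lies 2766 to 15461 bases inside the annotated gene. The printed window of Hoxd4 is among these, at 10049 bases. In the other windows the start lies within 269 bases of the annotated gene start. Most Hoxa7 reads (90.4%) were assigned to the transcript Hoxa7-201, which starts further inside still.

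Among the tested genes Hoxa7, a gene of the middle of the cluster used in the trunk, had the highest TPM in 3 of the 4 groups. At 3 h its TPM was 9.9, 13.4 and 12.8 in wild type and 15.5, 16.2 and 15.9 under the Chd5-/- label. The 48 h values were 28.6, 13.5 and 29.1 in wild type and 10, 7.35 and 10.1 under the Chd5-/- label. Hoxa7 thus had the highest TPM of HoxA in every library but replicate 2 of the last group, a library with high Mki67. Hoxa5 and Hoxa4, whose products act in the cervical region of the body, came next at 3 h, with 1.71, 4.63 and 4.19 TPM and 1.64, 4.04 and 4.75 TPM in wild type, ranges that overlap. Hoxa2 (0.132, 0.576 and 0.25 TPM), Hoxa9 (0.0718, 0.274 and 0.582 TPM) and Hoxa13 (0.0379, 0 and 0 TPM) were the lowest. In libraries of the Chd5-/- label at 48 h no gene led in all 3, and Hoxa7 was ahead by little in replicates 1 and 3. TPM was 8.22, 13.2 and 9.82 for Hoxa4, 9.38, 11.3 and 9.34 for Hoxa5, and 9.2, 8.31 and 9.74 for Hoxa10. With Hoxa7 as given above, the 4 ranges overlap.

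The make-up of HoxA expression, taken as each gene's percentage of the summed HoxA TPM, was less dominated by Hoxa7 in that group. The share of Hoxa7 was 69.6%, 44.7% and 43.9% in wild type at 3 h and 35.2%, 36.2% and 36.3% under the Chd5-/- label. The 48 h shares were 53.5%, 42.5% and 53.8% in wild type and 22.1%, 14.6% and 21% under the Chd5-/- label, below every library of the other 3 groups. The genes of the tail end, Hoxa9, Hoxa10 and Hoxa13, together held 26.5%, 19.5% and 25.8% there and 1.66% to 11.6% in the other 9 libraries. Hoxa10 had 0.919, 1.13 and 0.962 times the TPM of Hoxa7 in that group and 0.0128 to 0.234 times elsewhere. Because these ratios are formed within a library, they do not depend on its depth, and no test was made on them. They do depend on the transcripts to which reads were assigned: 70.9% of Hoxa10 reads went to Hoxa10-203, a transcript annotated without a coding sequence, and 25.7% to Hoxa10-201.

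**Figure D2:**
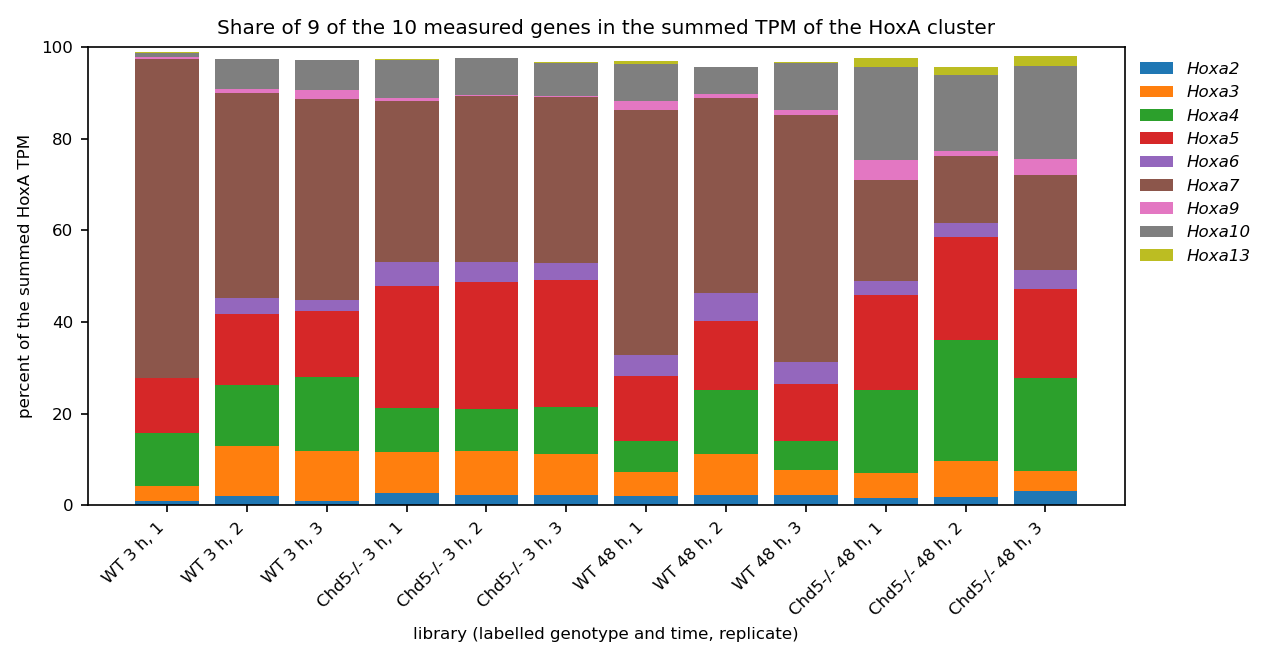
Stacked bars of the percentage that 9 of the 10 measured HoxA genes hold of the summed HoxA TPM of all 10, 1 bar per library, so that bars end short of 100%. The Hoxa7 share falls between 14.6% and 22.1% under the Chd5-/- label at 48 h and between 35.2% and 69.6% in the other libraries.

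At 3 h, Hoxa5 (ENSMUSG00000038253.6, chromosome 6, 52201754 to 52204587, minus strand) was higher under the Chd5-/- label. It lay at 13.1, 12.4 and 11.3 CPM in wild type (replicates 1, 2 and 3) and at 32.2, 32.1 and 32.2 CPM under the Chd5-/- label. The groups were far apart and the second hardly varied. Hoxa5 was the only Hox gene that passed (1 of 12; edgeR, log2 difference 1.39 with an SE of 0.21, 3 libraries a group, adjusted p = 0.00271), where 6.71% of all tested genes passed, 3.24% as higher and 3.48% as lower. The Hoxa5 call held in all 21 alternative fits (adjusted p = 2.17e-09 to 0.0177). DESeq2, among these, gave 3 genes, Hoxa2, Hoxa5 and Hoxa6 (11.1% of all genes it tested).

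Other HoxA genes at 3 h lay on the same side without passing. All 3 libraries of the Chd5-/- label were above all 3 of wild type for 8 of the 12 genes, and for none the reverse, while 23.9% of all tested genes were apart in the higher and 21.1% in the lower direction. Of the 9 genes that did not pass the filter through a single group, 6 were apart. Hoxa10, a gene of the lumbar region, lay at 0.911, 4.27 and 4.33 CPM in wild type and 8.44, 8.02 and 7.06 CPM under the Chd5-/- label (1.28 ± 0.49, adjusted p = 0.151). Hoxa2, known for its role in the anterior hindbrain, lay at 1.01, 1.54 and 0.666 against 3.07, 2.71 and 2.45 CPM (1.35 ± 0.42, adjusted p = 0.084). Replicate 1 of wild type was the lowest library of its group for Hoxa3, Hoxa6, Hoxa9 and Hoxa10.

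Hoxa6, a thoracic gene, was listed at 0, 1.25 and 0.777 CPM in wild type and 2.79, 2.34 and 1.88 CPM under the Chd5-/- label (1.71 ± 0.7, adjusted p = 0.173). Hoxa3, which patterns the neck and its glands, lay at 5.77, 14.3 and 13.8 against 17.9, 17.9 and 17.2 CPM (0.64 ± 0.37, adjusted p = 0.318). In both the nearest libraries of the groups were close together. Hoxa13, the gene of limb ends and genital tract, had 1 read in wild type and 15 under the Chd5-/- label, a ratio of 13.1 with a 95% exact Poisson interval of 2.36 to 518 (counting error only), and it did not pass (adjusted p = 0.143). Hoxd4 was also among the 8, with 0 reads against 4.

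Hoxa4, Hoxa7, Hoxa9 and Hoxd8 were not apart at 3 h. Hoxa4 lay at 9.32, 8.14 and 9.6 CPM in wild type and 8.72, 7.95 and 8.71 CPM under the Chd5-/- label, which overlap. Hoxa9 lay at 0.304, 0.74 and 0.721 against 0.503, 0.189 and 0.398 CPM, overlapping, with the lower mean under the Chd5-/- label (adjusted p = 0.46). Hoxd8 had 0 reads against 2. Hoxa7 lay at 90.2, 41.5 and 40.6 against 48.9, 48.3 and 47.4 CPM (-0.25 ± 0.34, adjusted p = 0.68). Its order rests on wild-type replicate 1: without that library the difference was 0.23, and in the 9 libraries it was 0.23 ± 0.04 (adjusted p = 0.000474). By TPM the same replicate was the lowest of its group, not the highest. In the 9 libraries 8 of the 12 Hox genes passed as higher and none as lower, where 52.5% of 16507 tested genes passed, 27.2% as higher and 25.3% as lower.

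**Figure D3:**
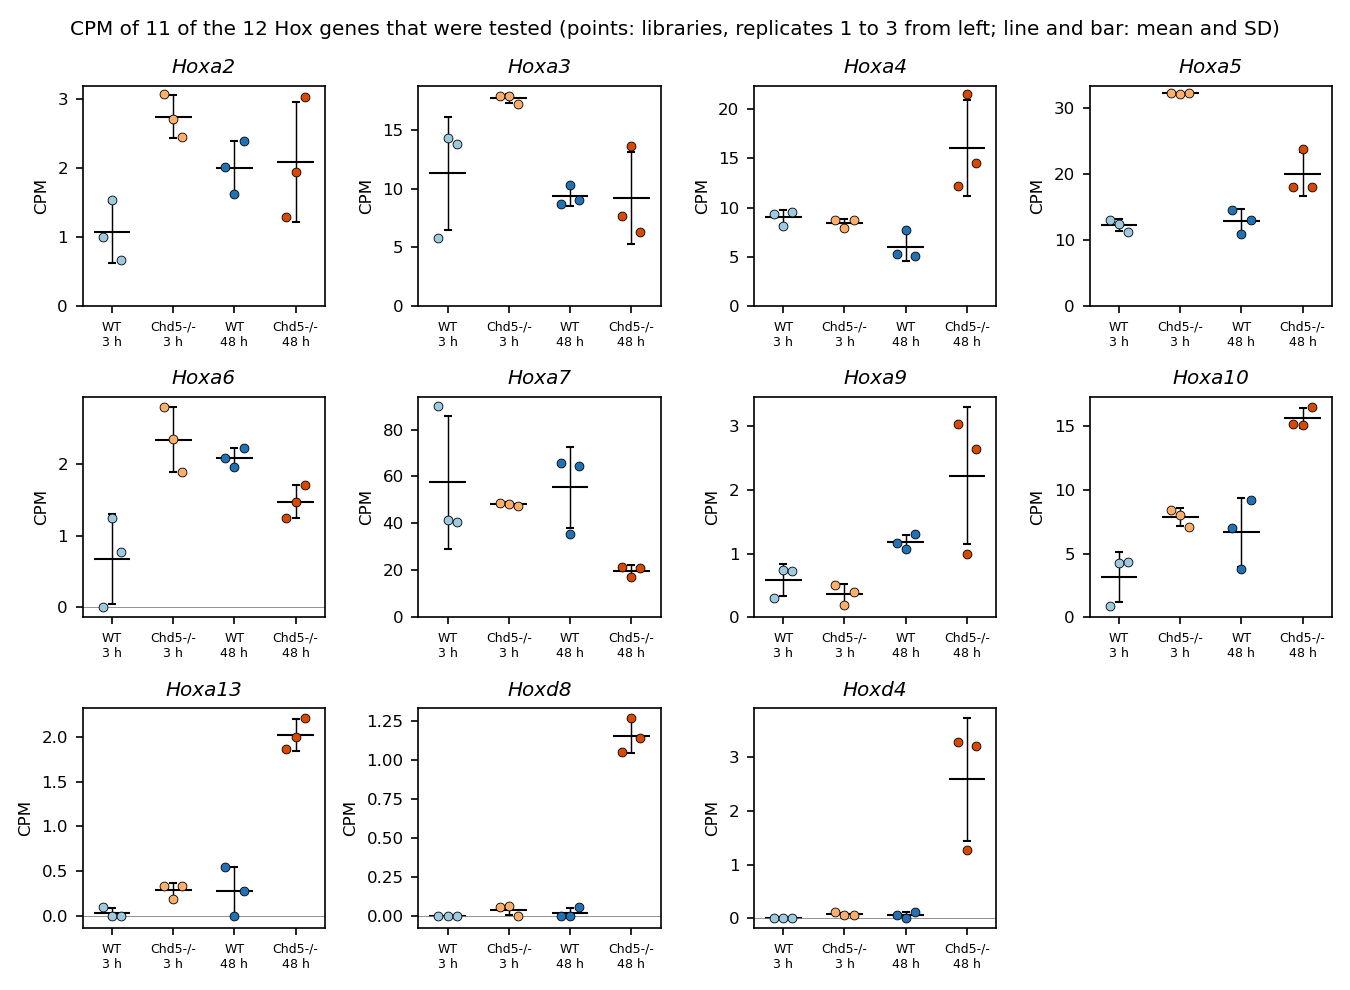
CPM of 11 of the 12 tested Hox genes in each library (points, replicates 1 to 3 from left to right), with the mean (line) and SD (bar) of the 3 libraries of a group. Hoxa5 is at 32.1 to 32.2 CPM under the Chd5-/- label at 3 h, Hoxa7 at 17.2 to 21.4 CPM under that label at 48 h, and Hoxd8 and Hoxd4 exceed 0.114 CPM only in the last group.

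At 48 h, Hoxa4, Hoxd4 and Hoxd8 were higher and Hoxa7 was lower under the Chd5-/- label. These 4 of 12 genes passed with 12 libraries, 3 higher and 1 lower, where 2.74% of all tested genes passed, 1.53% as higher and 1.21% as lower. Without Hoxa13, Hoxd4 and Hoxd8, tested only through their high group, 2 of 9 passed, Hoxa4 as higher and Hoxa7 as lower. DESeq2 gave 6 of 12 (4.66% of all genes it tested), the same 4 with Hoxa5 and Hoxa13, and limma-voom 4 (3%), Hoxa4, Hoxa13, Hoxd4 and Hoxd8. Without Hoxa13, Hoxd4 and Hoxd8, Hoxa4, Hoxa5 and Hoxa7 remain with DESeq2 and Hoxa4 alone with limma-voom. Hoxa4 (ENSMUSG00000000942.10, chromosome 6, 52189671 to 52191753, minus strand) lay at 5.31, 7.75 and 5.11 CPM in wild type and 12.2, 21.5 and 14.5 CPM under the Chd5-/- label. The groups did not overlap, and replicate 2 was the highest of both (1.41 ± 0.28, edgeR adjusted p = 0.0224). The call held in 16 of the 21 alternatives. It was lost with no filter on low counts and without wild-type replicate 1 or 3, or Chd5-/- replicate 2 or 3 by label, all at 48 h (0.115 at most).

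Hoxa7 moved the other way at 48 h. The gene (ENSMUSG00000038236.8, chromosome 6, 52214491 to 52221854, minus strand) lay at 65.9, 35.6 and 64.5 CPM in wild type and 21.4, 17.2 and 21 CPM under the Chd5-/- label, and the groups did not overlap. The lowest wild-type library was replicate 2, the one with high Mki67. The difference was -1.48 ± 0.35 with an adjusted p of 0.0492, close to the threshold, and passed in 7 of the 21 alternatives. With 1 library left out it passed only without wild-type replicate 1 at 3 h or wild-type replicate 2 at 48 h, (adjusted p = 0.00353 and 0.022), and was lost without any of the other 10 (0.0512 to 0.173). In the 9 libraries, with 2 in each group and without the lowest library of each, it was -1.61 ± 0.05 (edgeR adjusted p = 6.64e-11). That fit passed 47.2% of all tested genes at 48 h.

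Hoxa5, Hoxa10 and Hoxa13 did not pass at 48 h by edgeR with 12 libraries. Hoxa5 was at 14.6, 11 and 13.1 CPM in wild type and 18.1, 23.8 and 18 CPM under the Chd5-/- label (0.63 ± 0.2, adjusted p = 0.179; DESeq2 0.0481). Hoxa10 was at 7.02, 3.78 and 9.2 against 15.2, 15.1 and 16.5 CPM (1.22 ± 0.48, adjusted p = 0.317). Hoxa13 was at 0.55, 0 and 0.284 against 1.86, 2 and 2.21 CPM (2.81 ± 0.8, adjusted p = 0.111; DESeq2 0.0123, limma-voom 0.045). In all 3 the groups were apart, as they were for 6 of the 12 genes in the higher and 2 in the lower direction, against 12.3% and 10.9% of all tested genes; of the 9 genes without Hoxa13, Hoxd4 and Hoxd8 it was 3 and 2. Hoxa6 was the second gene on the lower side, at 2.08, 1.96 and 2.22 against 1.24, 1.47 and 1.7 CPM (-0.5 ± 0.67, adjusted p = 0.963).

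Hoxa2, Hoxa3 and Hoxa9 overlapped between the genotypes at 48 h. Hoxa2 ran from 1.62 to 2.39 CPM in wild type and from 1.3 to 3.03 CPM under the Chd5-/- label, and Hoxa3 from 8.67 to 10.3 and from 6.31 to 13.6 CPM. For Hoxa3, replicate 2 was the highest library of both genotypes. Hoxa9, at 1.16, 1.08 and 1.31 against 3.03, 1 and 2.65 CPM, overlapped only through replicate 2 under the Chd5-/- label. In the 9 libraries 10 of the 12 genes passed, 7 as higher and 3 as lower, where 47.2% of all tested genes passed (25.6% higher, 21.6% lower). The 7 include Hoxa13, Hoxd4 and Hoxd8, which add no independent support. At 48 h libraries of the same number deviated together in both genotypes, and with the replicate as a block Hoxd8 no longer passed (adjusted p = 0.0531), which left 3 genes.

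**Figure D4:**
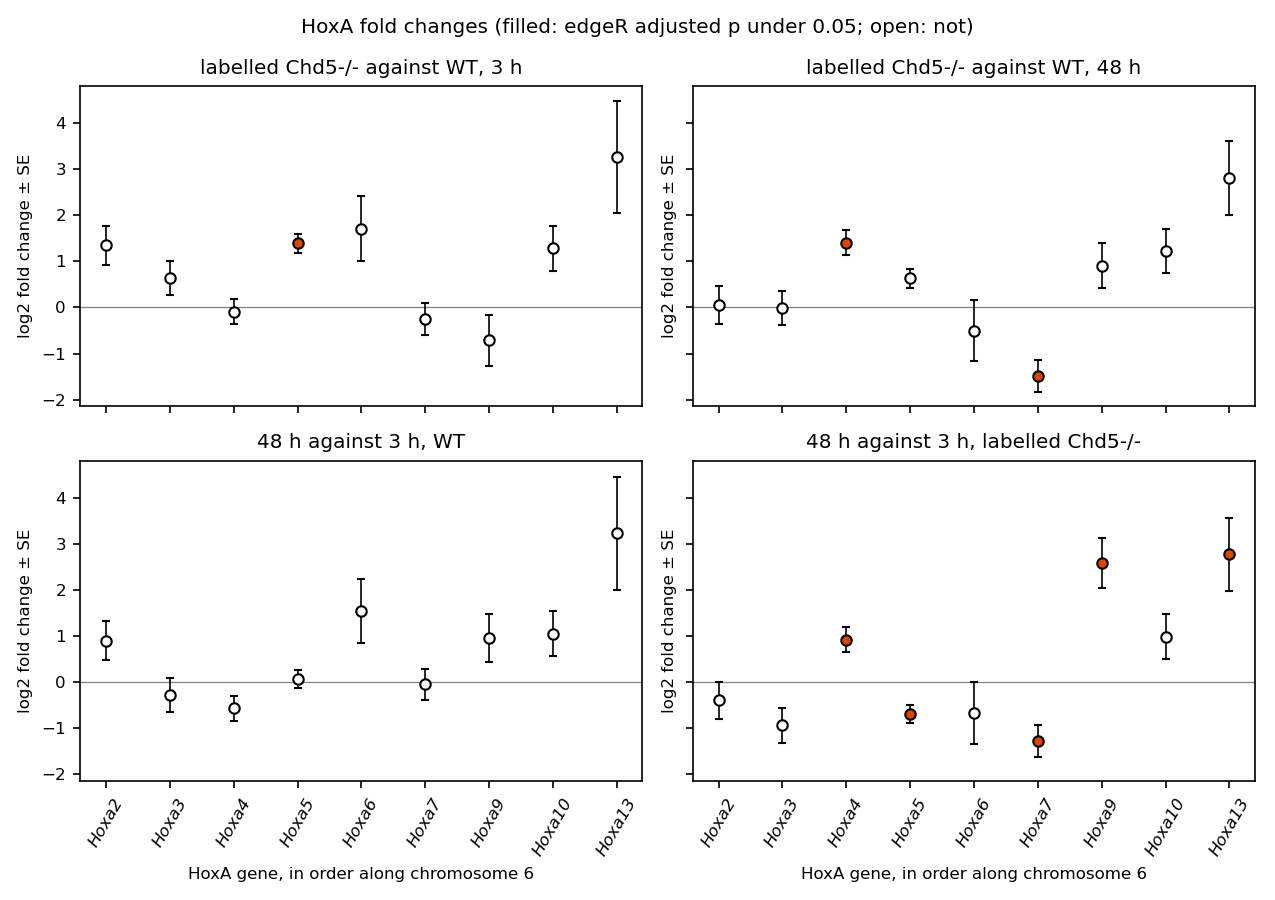
Log2 fold change ± SE of 9 of the 10 tested HoxA genes in order along chromosome 6, from the edgeR fit to 12 libraries, in 4 comparisons; filled points have an adjusted p under 0.05. Only Hoxa5 is filled at 3 h (1.39), Hoxa4 (1.41) and Hoxa7 (-1.48) at 48 h, none in wild type over time, and 5 genes over time under the Chd5-/- label.

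HoxD reads came up together in a stretch from Hoxd8 (ENSMUSG00000027102.4, chromosome 2, 74704615 to 74707933, plus strand) to Hoxd4 (ENSMUSG00000101174.8, 74711929 to 74729160, plus strand) and Hoxd3. Hoxd8 had 17, 19 and 18 reads under the Chd5-/- label at 48 h (1.05, 1.27 and 1.14 CPM), 1 read in wild type at 48 h, 2 under the Chd5-/- label at 3 h and 0 in wild type at 3 h. The ratio to wild type at 48 h was 56.2 (95% counting interval 10.1 to 2220). The edgeR adjusted p was 0.0121, for a gene that was tested only because it was high in this group. Hoxd4, a gene of the hindbrain and neck, had 53, 19 and 51 reads (3.28, 1.27 and 3.22 CPM) against 3 in wild type at 48 h, a ratio of 42.1 (14.4 to 204). Its adjusted p was 0.00805, with the same limit. Both genes were near 0 in 9 libraries and present in each of the last 3, with Hoxd4 lowest in replicate 2 and Hoxd8 alike in all 3. The Hoxd4 call was lost without wild-type replicate 1 at 48 h (adjusted p = 0.0509). The Hoxd8 call was lost without that library or replicate 3 labelled Chd5-/- at 48 h (up to 0.0655).

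Hoxd3, next to Hoxd4, had 6, 4 and 3 reads under the Chd5-/- label at 48 h and 0 in the other 9, at least 4.49-fold more than wild type at 48 h with the wild-type group set at 3 counts, and was too low to be tested. The antisense gene Hoxd3os1 had 24, 16 and 16 reads there and 2 in all other libraries together. Its ratio to wild type at 48 h was 58 (10.4 to 2290; edgeR adjusted p = 0.0192), and it too met the filter through that group alone. Haglr, a noncoding RNA gene between Hoxd3 and Hoxd1, had 10, 7 and 13 reads there and 0 elsewhere (at least 10.3-fold higher than wild type at 48 h). Hoxd9 and Hoxd1, on either side of the stretch, had 0 reads in all libraries.

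The HoxD genes overlap in the annotation, and the transcripts cannot all be told apart. Hoxd3 and the longest Hoxd4 transcript begin at 74711927 and 74711929, and the coding model Gm28230 overlaps both genes. Gm28230 had 13, 19 and 9 reads at 48 h under the Chd5-/- label against 2 in wild type (ratio 21.5, 5.95 to 177; adjusted p = 0.0727, not passed; also tested through that group alone). Of the Hoxd4 reads, 44.5% were assigned to Hoxd4-201, which begins at 74721978, just after the window printed above, 38.8% to Hoxd4-203, which begins beside the Hoxd3 start, and 16.6% to Hoxd4-202. Most Hoxd8 reads (86.6%) were assigned to Hoxd8-201, whose start lies downstream of the RefSeq start behind the printed window. The library kit keeps the strand, but whether the counting used it is not given in the sources used here, so sense and antisense reads of Hoxd3os1 and the genes it overlaps may be mixed.

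**Figure D5:**
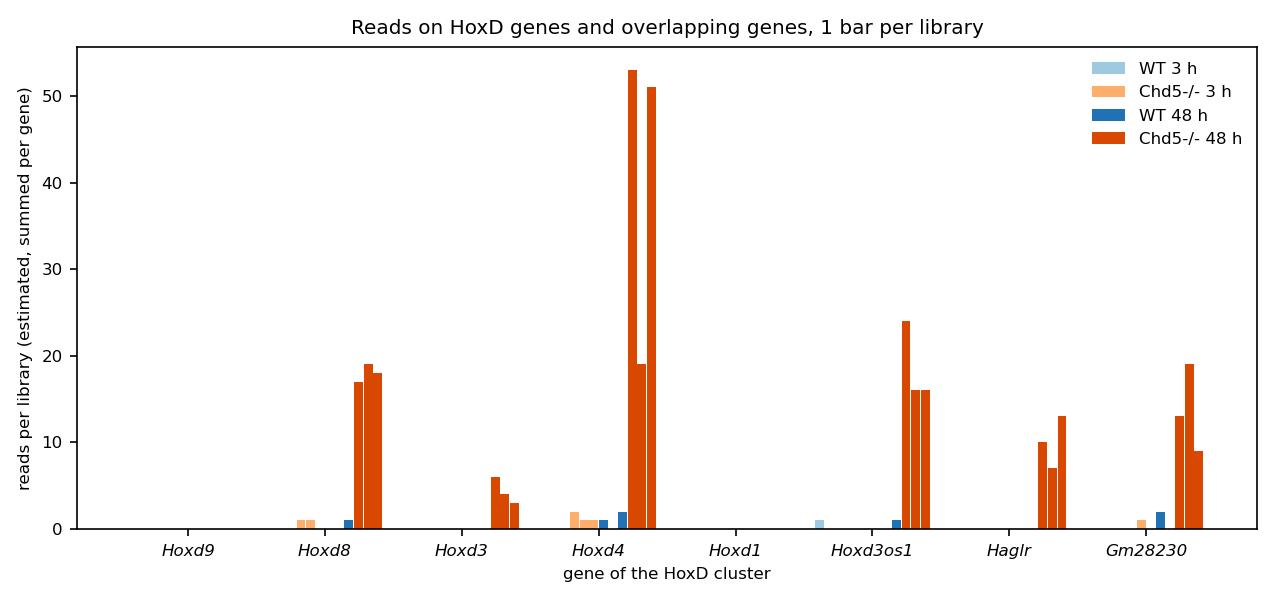
Estimated reads per library (bars, 3 per group in replicate order) on 5 HoxD genes and on Hoxd3os1, Haglr and Gm28230, which overlap or neighbour them. Hoxd4 reaches 53 reads and Hoxd8 19 under the Chd5-/- label at 48 h, and no gene shown exceeds 2 reads in any library of the other groups.

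Over time in wild type, no Hox gene passed. The edgeR test gave 0 of 12 with 12 libraries, with 4 at an unadjusted p under 0.05, where 22.9% of all tested genes passed (12.7% higher, 10.1% lower). DESeq2 gave 2, Hoxa6 and Hoxa13, both higher at 48 h (28.7% of all genes it tested), and limma-voom 0 (20.9%). Hoxa6 was at 0, 1.25 and 0.777 CPM at 3 h and at 2.08, 1.96 and 2.22 CPM at 48 h (edgeR 1.54 ± 0.7, adjusted p = 0.129; DESeq2 adjusted p = 0.0324). Hoxa7 was at 40.6 to 90.2 CPM at 3 h and 35.6 to 65.9 CPM at 48 h (-0.05 ± 0.34, adjusted p = 0.924), and its sign depended on the libraries kept. In the 9 libraries it was 0.62 higher at 48 h, and 7 genes passed, 5 as higher and 2 as lower, where 76% of all tested genes passed (37.6% higher, 38.3% lower).

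The 48 h wild-type libraries were apart from those at 3 h for 4 genes in the higher direction, Hoxa2, Hoxa6 and Hoxa9 among them, and 1 in the lower (Hoxa4), against 20.9% and 16.8% of all tested genes. Hoxa4 was at 9.32, 8.14 and 9.6 CPM at 3 h and 5.31, 7.75 and 5.11 CPM at 48 h (-0.57 ± 0.28, adjusted p = 0.15). Hoxa5 stayed between 11 and 14.6 CPM in all 6 wild-type libraries. Hoxa10 was at 0.911 to 4.33 CPM at 3 h and 3.78 to 9.2 CPM at 48 h, which overlap.

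Over time under the Chd5-/- label, 7 of 12 Hox genes passed, 5 as higher and 2 as lower, where 22.1% of all tested genes passed (14.1% higher, 8.03% lower). Without Hoxa13, Hoxd4 and Hoxd8, tested only through the 48 h group in which they were high, 4 of 9 passed, Hoxa4 and Hoxa9 as higher and Hoxa5 and Hoxa7 as lower. Hoxa9, a gene of the trunk and of blood stem cells, was at 0.503, 0.189 and 0.398 CPM at 3 h and 3.03, 1 and 2.65 CPM at 48 h (2.58 ± 0.54, edgeR adjusted p = 0.00728). Hoxa13 was at 0.335, 0.189 and 0.341 CPM and then 1.86, 2 and 2.21 CPM (2.77 ± 0.79, adjusted p = 0.0297). Hoxa4 was at 8.72, 7.95 and 8.71 CPM and then 12.2, 21.5 and 14.5 CPM (0.92 ± 0.27, adjusted p = 0.0344). In these 3 every 48 h library was above every 3 h library. Hoxd8 and Hoxd4 passed as well (adjusted p = 0.00426 and 0.00244), with a ratio of 29.6 for Hoxd8 (8.18 to 244) and a log2 fold change of 4.93 ± 0.72 for Hoxd4.

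Hoxa5 and Hoxa7 fell under the Chd5-/- label. Hoxa5 went from 32.2, 32.1 and 32.2 CPM at 3 h to 18.1, 23.8 and 18 CPM at 48 h (-0.69 ± 0.2, adjusted p = 0.0339). Hoxa7 went from 48.9, 48.3 and 47.4 CPM to 21.4, 17.2 and 21 CPM (-1.28 ± 0.34, adjusted p = 0.0232). Hoxa3, at 17.9, 17.9 and 17.2 and then 7.68, 13.6 and 6.31 CPM, was apart in the same direction but did not pass (-0.94 ± 0.37, adjusted p = 0.0953), nor did Hoxa10, at 7.06 to 8.44 and then 15.1 to 16.5 CPM (0.99 ± 0.48, adjusted p = 0.165). Of all 12 genes, 6 were apart as higher and 4 as lower, against 32.2% and 32.4% of all tested genes; without those 3 genes it was 3 and 4 of 9. In the 9 libraries 11 of 12 passed, 6 as higher and 5 as lower, where 79% of all tested genes passed (38.9% higher, 40.1% lower). The 6 include Hoxa13, Hoxd4 and Hoxd8, which add no independent support.

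The calls over time differed in how they held. Hoxa9, Hoxd4 and Hoxd8 passed in all 21 alternatives (adjusted p up to 0.0413). Hoxd4 and Hoxd8 were tested only through the group in which they were high, so their stability is no independent support. Hoxa4 was lost in 9 of them, among them the fits without any 1 of the 3 libraries at 3 h labelled Chd5-/-, without replicate 2 or 3 at 48 h of that label or without wild-type replicate 1 at 48 h. Hoxa5 was lost in 10, among them the fits without any 1 of the same 3 libraries at 3 h, without replicate 1 or 3 at 48 h of that label or without wild-type replicate 3 at 48 h. Hoxa7 was lost without any 1 of the 6 libraries of the Chd5-/- label and with an offset for transcript length (adjusted p up to 0.0693). Hoxa13 was lost with that offset and without any of those 6 but replicate 2 at 48 h (up to 0.122).

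Whether the genotypes differed in their change over time was tested as an interaction, and no Hox gene passed (edgeR, 0 of 12; 5 at an unadjusted p under 0.05; 0.231% of all tested genes passed, 0.137% as higher and 0.0935% as lower). DESeq2 gave 1, Hoxa4 (adjusted p = 0.0159; 2.24% of all genes it tested), and limma-voom 0 (0.243%). The value for Hoxa4 was 1.5 ± 0.39 (edgeR adjusted p = 0.181), for Hoxa7 -1.23 ± 0.48 (0.43), for Hoxa5 -0.76 ± 0.29 (0.411) and for Hoxa2 -1.29 ± 0.58 (0.494). In the 9 libraries 7 passed, 2 as higher, Hoxa4 and Hoxa9, and 5 as lower, where 40.4% of all tested genes passed (19.3% higher, 21.1% lower). With 1 library left out, 1 gene passed in a single case, Hoxa7 without wild-type replicate 1 at 3 h (-1.7, adjusted p = 0.03), and 0 in the other 11. The comparisons at 48 h and over time share libraries of the Chd5-/- label at 48 h, so a gene high there is high in both.

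The factors that bind DNA together with HOX proteins were all present. All 9 genes of the PBX, MEIS and PKNOX families were tested. Only Pknox2 passed between the genotypes, lower at 3 h (10.7 ± 2.04 against 5.44 ± 0.499 CPM, mean ± SD, n = 3; -0.98 ± 0.24, edgeR adjusted p = 0.0384), and 0 passed at 48 h. With 9 libraries 6 of 9 passed at 3 h and 7 at 48 h, where 52.5% and 47.2% of all genes passed. Over time 2 of 9 passed in wild type, beside 22.9% of all tested genes, and 5 of 9 under the Chd5-/- label, 4 as higher and 1 as lower, beside 22.1%. The median over the 9 genes was 0.03 at 3 h and -0.2 at 48 h between genotypes, beside -0.02 over all tested genes in both.

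Of 24 genes known to control Hox clusters, among them the CDX factors, Polycomb and Trithorax group genes, 20 were tested, and Cdx1, Cdx2 and Cdx4 had 0 reads. Zic1 was the only 1 that passed between genotypes, higher at 3 h under the Chd5-/- label (5.17 ± 3.69 against 35.9 ± 2.29 CPM; 2.78 ± 0.59, adjusted p = 0.0189), beside 6.71% of all tested genes. At 48 h 0 passed, beside 2.74% of all tested genes. In the 9 libraries it was 12 of 20 at 3 h and 13 at 48 h, beside 52.5% and 47.2% of all tested genes. Over time 1 passed in wild type and 4 under the Chd5-/- label, beside 22.9% and 22.1% of all tested genes. Kdm6b, which encodes a demethylase of the Polycomb mark, rose in both genotypes (27.2 ± 7.36 to 87.1 ± 9.11 CPM in wild type, adjusted p = 0.00301; 25.4 ± 0.988 to 82.9 ± 17.1 CPM under the Chd5-/- label, adjusted p = 0.00154). Gdf11, a signal that sets the position of the trunk-to-tail transition, rose over time as well under the Chd5-/- label (32.3 ± 1.68 to 58 ± 2.83 CPM, adjusted p = 0.0213). There Ezh2, the writer of the Polycomb mark, fell from 210 ± 5.79 to 82.3 ± 37.2 CPM (adjusted p = 0.033) and Zic1 from 35.9 ± 2.29 to 10 ± 1.19 CPM (adjusted p = 0.0401). In wild type Ezh2 went from 176 ± 27.6 to 82.9 ± 46.7 CPM and Gdf11 from 32.2 ± 8.64 to 41.7 ± 5.8 CPM, without passing (edgeR adjusted p = 0.0689 and 0.237). The list's medians between genotypes were 0.18 at 3 h and -0.07 at 48 h.

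Retinoic acid, made by ALDH1A enzymes and read by RAR receptors, is a known inducer of the low-numbered Hox genes. Of 18 genes of its synthesis, breakdown and signalling 11 were tested. At 3 h 3 were lower under the Chd5-/- label and none higher: the receptors Rara (23.8 ± 8.31 against 9.3 ± 1.43 CPM, adjusted p = 0.0136) and Rarg (4.04 ± 0.652 against 1.69 ± 0.342 CPM, adjusted p = 0.0336), and the enzyme Aldh1a3 (29.7 ± 1.58 against 5.8 ± 0.247 CPM, adjusted p = 0.0192). These 3 of 11 stand beside 3.48% of all tested genes lower at 3 h, and in the 9 libraries 8 were lower and 2 higher, beside 25.3% and 27.2%. At 48 h only the enzyme Aldh1a1 passed, lower under the Chd5-/- label (214 ± 96.3 against 40.1 ± 12.6 CPM, -2.42 ± 0.38, edgeR adjusted p = 0.00798), beside 1.21% of all tested genes lower. In the 9 libraries 3 were higher and 3 lower, beside 25.6% and 21.6% of all tested genes. The list's medians were -1.25 at 3 h and 0.05 at 48 h.

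Factors of regional identity in the brain were measured beside the Hox genes. Of 18 forebrain factors 10 were tested, and 4 passed between genotypes at 3 h, 2 as higher, Otx2 and Eomes, and 2 as lower, Six3 among them, under the Chd5-/- label, beside 6.71% of all tested genes. At 48 h 2 of 10 passed, Otx2 as higher (adjusted p = 0.0151) and Six3 as lower (37.2 ± 1.64 against 14.6 ± 1.13 CPM, adjusted p = 0.00842), beside 2.74%. With 9 libraries it was 6 of 11 at each time, beside 52.5% of all tested genes at 3 h and 47.2% at 48 h. Of 18 midbrain and hindbrain factors 10 were tested, and En2 and Irx1 were higher at 3 h. At 48 h Irx1 and Lmx1b were higher and En1 lower. Beside them stand 6.71% of all tested genes at 3 h and 2.74% at 48 h. In the 9 libraries 7 of 10 passed at 3 h and 8 at 48 h, beside 52.5% and 47.2% of all tested genes. Irx1 lay at 0.0745 ± 0.0846 against 6.52 ± 0.741 CPM at 3 h (adjusted p = 0.000549) and 0.554 ± 0.353 against 18.9 ± 6.09 CPM at 48 h (adjusted p = 0.00125). Genes of both territories were thus read in the same bulk cultures.

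Some markers of other cell types differed between the groups, at low levels. Of 12 mesenchymal and neural crest markers 5 were tested. The summed level of the 12 at 3 h was 30.3 to 65.7 CPM in wild type and 29.1 to 32 CPM under the Chd5-/- label. At 48 h it was 37.6 to 57.6 and 33.8 to 57.7 CPM, so the genotypes overlapped at both times. At 3 h the overlap rested on wild-type replicate 1, at 30.3 CPM, while replicates 2 and 3 were at 65.7 and 63.7 CPM. In every library 1 tested marker made up most of the sum, so the sum mainly describes 1 gene. That marker did not pass between the genotypes with 12 libraries. Twist1, Col1a1 and Col3a1 were lower at 3 h under the Chd5-/- label, 3 of 5 beside 3.48% of all tested genes, and the other tested markers did not pass. In the 9 libraries 4 of 6 passed at each time, beside 52.5% of all tested genes at 3 h and 47.2% at 48 h. Twist1, a factor of mesenchyme, went from 2 ± 0.231 against 0.0376 ± 0.0326 CPM at 3 h (adjusted p = 0.000417) to 0.45 ± 0.192 against 1.85 ± 0.129 CPM at 48 h (2.02 ± 0.44, adjusted p = 0.0349), and its interaction passed (adjusted p = 0.00248). Of 6 motor neuron markers only Isl2 was tested, lower at 3 h (8.22 ± 2.79 against 3.26 ± 0.549 CPM, adjusted p = 0.0378), and Slc18a3 had 0 reads. The summed level of the 6 was 5.62 to 11.7 CPM in wild type and 2.84 to 4.07 CPM under the Chd5-/- label. Isl2 made up nearly all of this sum, as no other marker of the list had more than 14 reads in total, so it describes 1 gene. Of 8 endothelial and blood markers 3 were tested, and Tek was lower at both times under the Chd5-/- label. The summed level of the 8 was 1.62 to 9.16 CPM in wild type and 0.569 to 2.79 CPM under the Chd5-/- label. Tek was the largest part of it in wild type (2.95 ± 1.97 CPM at 3 h and 6.98 ± 0.547 CPM at 48 h). Another tested marker had the higher mean under the Chd5-/- label at 48 h, without passing. The part of any of these cells in the Hox levels was not tested.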

How the data were processed

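The authors deposited a Salmon transcript table for every library (tool named in the submitters' processing notes). Neither its version nor its index is given in the sources used here. The deposited columns hold estimated counts and TPM per the file headers. Of 140658 transcripts 140137 matched GENCODE M21 (GRCm38) by name; the 521 others, 0.135% to 0.181% of reads, were left out. For each of 54356 genes the estimated counts of its transcripts were added up and rounded, and their TPM added up.

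Counts were tested in edgeR 4.0.16 (R 4.3.3): filterByExpr (minimum count 10, minimum total 15; 16043 genes), TMM scaling, a quasi-likelihood model with 1 mean per group over all 12 libraries, two-sided F tests, and Benjamini-Hochberg adjustment over all tested genes at 0.05. The procedure was tested on simulated counts. Alternatives were DESeq2 1.42.0, voom from limma 3.58.1, RLE scaling, a filter at 1 CPM in 3 libraries or at 1 read in all, effective length as an offset, coding transcripts only, a replicate block, each library left out in turn, and 9 libraries. At 48 h, same-numbered libraries of the genotypes deviated together from their group means (r = 0.56, 0.74 and 0.56). Replicate 2 stood apart in both genotypes, and deviations from a mean of 3 sum to 0. Replicates 1 and 3 can therefore deviate together without being paired by number, and their pairing was not tested. A group with 1 to 3 reads was compared by a ratio with an exact Poisson interval of 95%, and a group with 0 reads by a floor of 3 counts. Promoter sequences are from RefSeq (GRCm38.p6). The named genes are the 39 Hox genes and, of each list, up to 4 members with the smallest p; Chd5, Mki67 and Sox2 are named for other reasons. Some genes are counted but not reported by name here. The members and lists were chosen with earlier results of these data known.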

Additional observations from a re-analysis of the deposited data

Results flagged for a closer look

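Hoxa4 moved in opposite directions over time in the genotypes: every wild-type library at 48 h was below every wild-type library at 3 h, and every library labelled Chd5-/- at 48 h was above every such library at 3 h. The difference between the changes was 1.5 on the log2 scale and did not pass with 12 libraries (edgeR interaction, adjusted p = 0.181; 2.59e-05 to 0.477 over the alternatives).

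Hoxa6 moved in opposite directions as well, apart as higher at 48 h in wild type and as lower under the Chd5-/- label. The difference was -2.21 and did not pass (adjusted p = 0.487; 0.00547 to 0.776 over the alternatives).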

How the results depend on the processing

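Of 38 Hox gene values followed through 21 alternatives, 12 passed with 12 libraries. None of these 12 changed sign, and 4 passed in every alternative: Hoxa5 at 3 h, and Hoxa9, Hoxd4 and Hoxd8 over time under the Chd5-/- label. Hoxd4 and Hoxd8 were tested only because they were high in that label at 48 h, so this adds no independent support for them. Uncalled, Hoxa7 at 3 h turned to 0.23 in the 9 libraries (-0.44 to 0.23 with 1 library left out), and Hoxa7 over time in wild type to 0.62 in the 9 libraries, 0.02 with limma-voom, 0.02 with no filter and 0.11 with coding transcripts only (-0.25 to 0.39 with 1 library left out).

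The number of Hox genes that passed was 1 at 3 h, 8 in the 9 libraries and 3 with DESeq2 (1 to 2 with 1 library left out). At 48 h it was 4, and 10 in the 9 libraries (0 to 6). Over time in wild type it was 0, and 7 in the 9 libraries, 2 with DESeq2 and 1 with coding transcripts only (0 to 2). Over time under the Chd5-/- label it was 7, and 11 in the 9 libraries and 3 with the length offset (3 to 9). For the interaction it was 0, and 7 in the 9 libraries and 1 with DESeq2 (0 to 1). The cause was not tested.

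With a replicate block, 3 genes passed at 48 h, all but Hoxd8 (adjusted p = 0.0531), and 5 over time under the Chd5-/- label, all but Hoxa4 and Hoxa5 (adjusted p = 0.126 and 0.114); it ended no other call. Libraries of the same number did not deviate together at 3 h (r = 0.15, 0.08 and 0.05) or across time (-0.01 to 0.02). Depth limits the HoxB, HoxC and HoxD genes: 0 reads allow 0.166 to 0.304 CPM in a single library.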

Other observations

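The noncoding genes inside the clusters followed the same division as the coding genes. HoxA held 18 of them with 2942 reads, of which 6 were tested; HoxC held 7 with 0 reads, Hotair among them; HoxB held 9, of which 8 had 0 reads and the ninth was a pseudogene. Hotairm1, an antisense RNA of HoxA, had 58 to 192 reads in every library and passed in no comparison with 12 libraries, but its difference at 3 h turned from -0.54 to 0.74 (adjusted p = 0.59 and 0.00158) in the 9 libraries. Halr1, a noncoding RNA gene outside the HoxA cluster, fell over time in wild type, from 353, 174 and 160 reads to 79, 75 and 86 (-1.88 ± 0.48, edgeR adjusted p = 0.0217; -1 in the 9 libraries). Under the Chd5-/- label Halr1 went from 344, 303 and 304 reads to 97, 143 and 98, without passing with 12 libraries (-1.36 ± 0.47, edgeR adjusted p = 0.064). In the 9 libraries that change was -1.64. Hottip, beyond Hoxa13, had 5, 0 and 4 reads under the Chd5-/- label at 48 h and 0 elsewhere. The hairpin genes of miR-10 and miR-196 had 0 reads, in libraries made from mRNA, which do not measure mature miRNAs.

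Of 20 coding genes that flank the clusters 14 were tested and none passed between the genotypes at either time with 12 libraries (medians 0.16 at 3 h and 0.06 at 48 h), while 9 passed at each time in the 9 libraries, 6 as higher and 3 as lower, where 52.5% of all genes passed at 3 h and 47.2% at 48 h. Evx1 and Evx2, homeobox genes beside HoxA and HoxD, had 0 reads. Skap2, a gene that flanks HoxA, rose over time under the Chd5-/- label, from 114 ± 2.39 to 207 ± 7.38 CPM (mean ± SD, n = 3). In wild type it went from 68.3 ± 19.5 to 106 ± 31.8 CPM without passing (edgeR adjusted p = 0.122).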
